A study of Mus musculus with 4 samples.

Results

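The 40 genes described here encode proteins that drive or carry out mitosis, and they were followed in 4 RNA-seq libraries of primary macrophages grown from the bone marrow of C57BL/6 mice. They are mitotic kinases, cyclins, centromere and kinetochore proteins, spindle motors and cytokinesis proteins, listed by symbol and matched to the table through Ensembl gene identifiers. All 40 were found among the 34745 genes of the table. Both groups were transfected with a small interfering RNA (siRNA) and both received lipopolysaccharide (LPS), the bacterial cell wall component that activates macrophages. Of the 4 libraries, 2 carried Acly-E14 siRNA and 2 carried control siRNA, and no group without LPS or without transfection was analysed here. Acly encodes ATP citrate lyase, which makes cytosolic acetyl-CoA, and the labels do not spell out E14. The labels give no LPS dose, time or number of animals, and do not state whether replicate libraries derive from different cultures or mice. The p-values therefore measure only the spread between these libraries, which may be technical.

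Mitosis starts when CDK1, bound to cyclin A or cyclin B, phosphorylates many proteins, and it ends when the anaphase-promoting complex (APC/C) marks the cyclins for destruction. In between, Aurora and Polo-like kinases and kinesin motors build the spindle, kinetochores attach chromosomes to it, and a checkpoint holds the cell until all are attached. Transcripts of most of these proteins are made in G2 and M phase and are low in resting cells. Macrophages grown from marrow divide in response to the growth factor M-CSF, and LPS is known to slow that division. In bulk RNA a larger share of dividing cells and more RNA per dividing cell cannot be told apart.

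The G2 and M phase genes are known for promoters with CCAAT boxes, which the factor NF-Y binds, and with a cell cycle homology region, TTTGAA, which MuvB complexes bind. Promoter sequences (RefSeq, GRCm38.p6, 250 bases before to 50 bases after the start) were matched by symbol for 34 of the 40 genes (all but Ccna2, Pbk, Aurkb, Incenp, Kif20a and Tpx2) and searched on both strands for 3 motifs. A CCAAT match can share its end base with a match of either other motif. TTTGAA was present in 26 of the 34 windows (76.5%), against 18.1% of 27025 promoters, 1 per symbol. The variant TTCGAA was present in 3 (8.82%, against 1.57%), and CCAAT in 27 (79.4%, against 37.9%). Within the last 100 bases before the start, CCAAT was present in 25 of 34 (73.5%, against 19.6%) and TTTGAA in 7 (20.6%, against 5.91%), and 18 of the 34 had a TTTGAA match after or across the start. Base composition was not matched, and a match is a run of letters, not a site shown to be used. For only 23 of the 34 genes, the first 20 bases after the start lay within a GENCODE M21 transcript of the gene.

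The stretches below show where these motifs sit before 7 of the genes, given as examples and not as typical of the 34. They run 5′ to 3′ on the gene's own strand, end at the first annotated exon base or the RefSeq start, whichever comes first, and carry each match in capitals (TTTGAA, which reads TTCAAA on the other strand, and the CCAAT box, which reads ATTGG there). They lie at chr11:99024190-99024289 (Top2a, minus strand), chr4:118437353-118437443 (Cdc20, minus), chr10:69352939-69353012 (Cdk1, minus), chr19:37376282-37376381 (Kif11, plus), chr7:135716380-135716479 (Mki67, minus), chr9:70421555-70421654 (Ccnb2, minus) and chr9:83834589-83834688 (Ttk, plus). Top2a and Ccnb2 hold 3 CCAAT matches each, and Mki67 holds none. Top2a, Cdc20, Cdk1, Kif11 and Mki67 hold a TTTGAA match, as 7 of the 34 genes did within the last 100 bases. Anln, Birc5, Bub1b, Kif2c, Melk, Ndc80, Nuf2 and Nusap1 had none of the 3 motifs in those 100 bases and are not shown. In Kif11 and Top2a the TTTGAA match lies downstream of every CCAAT match shown. In Cdc20 it lies downstream of the CCAAT match shown. A further Cdc20 CCAAT match, 8 bases before the RefSeq start, falls outside the stretch and lies downstream of that TTTGAA match. In Cdk1 the TTTGAA match shown lies between 2 CCAAT matches, and a further TTTGAA match, 15 bases before the RefSeq start, falls outside the stretch. In Ccnb2 and Ttk the stretch holds no TTTGAA match.
Top2a: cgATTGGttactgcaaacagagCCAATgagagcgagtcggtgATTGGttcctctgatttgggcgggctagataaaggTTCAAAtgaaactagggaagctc
Cdc20: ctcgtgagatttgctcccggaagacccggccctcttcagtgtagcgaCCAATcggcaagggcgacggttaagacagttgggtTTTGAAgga
Cdk1: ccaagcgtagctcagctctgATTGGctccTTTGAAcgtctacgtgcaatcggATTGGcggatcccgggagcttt
Kif11: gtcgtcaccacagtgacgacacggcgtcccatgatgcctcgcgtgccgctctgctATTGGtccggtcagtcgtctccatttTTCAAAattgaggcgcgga
Mki67: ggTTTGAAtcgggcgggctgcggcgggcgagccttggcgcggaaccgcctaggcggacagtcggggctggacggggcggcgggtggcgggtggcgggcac
Ccnb2: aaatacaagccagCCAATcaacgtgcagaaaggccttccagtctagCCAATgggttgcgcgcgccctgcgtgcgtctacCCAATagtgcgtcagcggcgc
Ttk: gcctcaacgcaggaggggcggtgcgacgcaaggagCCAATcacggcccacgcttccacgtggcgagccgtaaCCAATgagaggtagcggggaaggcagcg

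The libraries held 21023197 to 21837806 counts. Levels below are in CPM, a gene's counts scaled to a library's effective total with TMM factors. Acly measured 158 and 154 CPM with control siRNA against 118 and 127 CPM with Acly-E14 siRNA, and fell by 0.35 on the log2 scale (edgeR adjusted p = 0.0086). The adjusted p was 0.058 without control library 1. Replicates of a group correlated at 0.989 and 0.99 across genes, against 0.955 to 0.969 between groups. Over all 13108 genes tested, 2264 were higher in Acly-E14 siRNA libraries and 2090 lower (2776 and 1446 when libraries were scaled by their totals alone, 2669 and 1389 with limma on FPKM). Macrophage markers were abundant, with Cd68 at 1158 to 2028 CPM and Adgre1 at 190 to 227 CPM in all 4 libraries.

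The mitosis genes were higher in the Acly-E14 siRNA libraries. Of the 40, 31 rose, 0 fell and 9 were not called at an edgeR adjusted p under 0.05, where 17.3% of all genes tested rose, 15.9% fell and so 33.2% were called in either direction. At an unadjusted p under 0.05, 0 of the 40 were lower. DESeq2 called 28 higher and 0 lower, where 9.31% of its 18730 genes were higher. Those 18730 include genes of low count that the edgeR filter left out, so this share is over a different set. With limma on FPKM, 35 were higher and 0 lower, where 20.4% of all genes were higher. The median log2 fold change of the 40 by edgeR was 1.09, against 0.0027 over all genes tested. The changes ran from 1.14-fold for Tpx2 to 3.12-fold for Kif2c, and 22 of the 31 called genes lay beyond 1 on the log2 scale, as did 7.49% of all genes. In each of the 40 both Acly-E14 siRNA libraries lay above both controls, which held for 35.3% of all genes. The margin was small for some: the lower Acly-E14 siRNA library was 1.001 times the higher control for Pbk and 2.62 times for Kif22, and it was at least 1.5 times for 27 of the 40. The number called rested on single libraries. Without Acly-E14 siRNA library 2 it was 10 (7.78% of all genes rose) and without control library 1 it was 15 (8.68%), against 22 without Acly-E14 siRNA library 1 (11%) and 32 without control library 2 (13.5%).

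**Figure D1:**
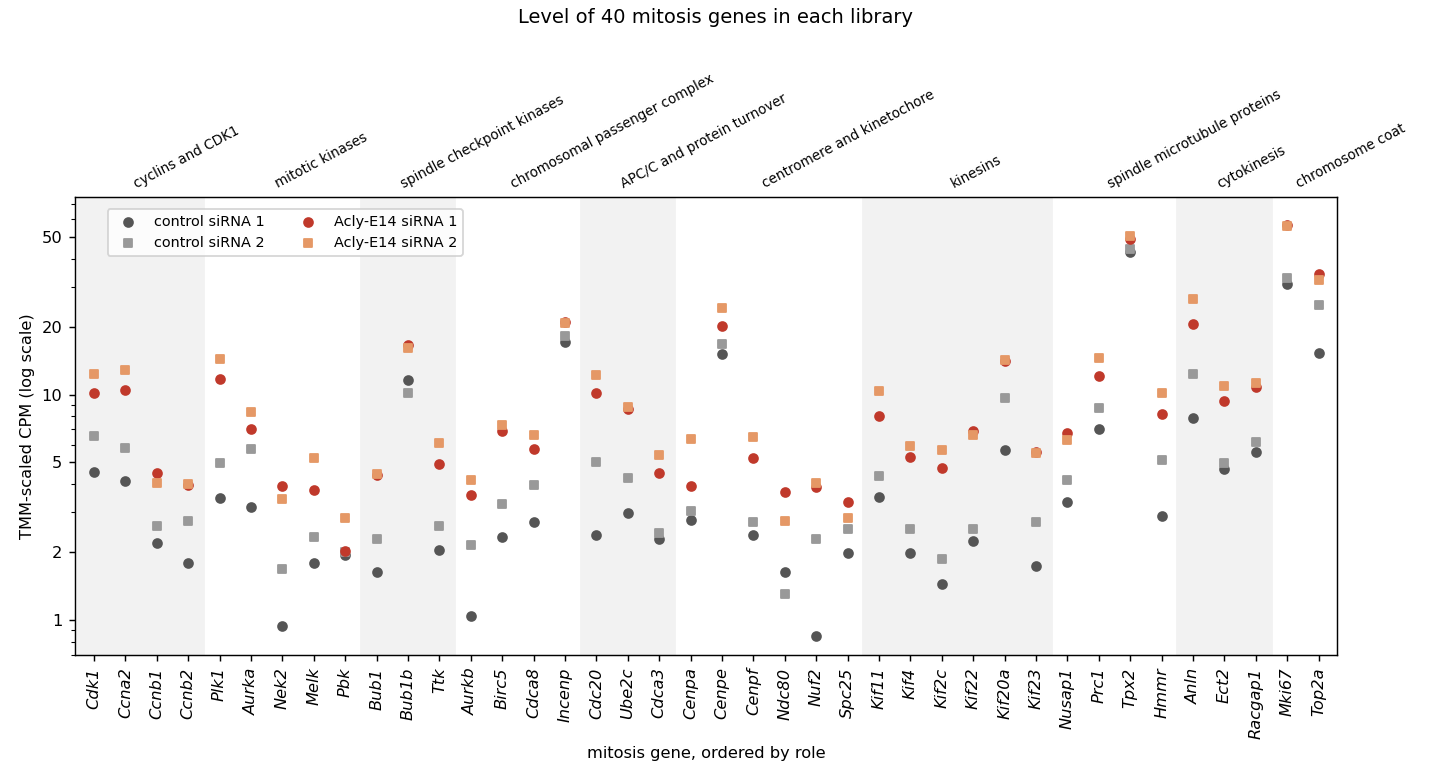
TMM-scaled CPM on a log axis for each of the 40 mitosis genes in each of the 4 libraries, ordered by role, with 1 point per library. Points of both Acly-E14 siRNA libraries lie above both controls for every gene, by as little as 1.001 times for Pbk and as much as 2.62 times for Kif22.

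These were rare transcripts in all libraries. The 40 genes together took 0.0222% of the counts in control library 1 (exact 95% binomial interval 0.0216% to 0.0229%) and 0.0278% in control library 2 (0.0271% to 0.0286%). In the Acly-E14 siRNA libraries they took 0.0448% (0.0439% to 0.0457%) and 0.0491% (0.0481% to 0.050%). The 4 intervals, which cover counting error only, do not overlap. The mean share was 0.0250% ± 0.00398 (SD, n = 2) in controls and 0.0469% ± 0.00304 (n = 2) after Acly-E14 siRNA, a ratio of 1.87. An exact two-sided permutation test of 2 libraries against 2 cannot give less than the p = 0.33 found here. Single genes had 17 to 1240 counts per library, and 10 of the 40 had at least 100 counts in every library. All 40 had at least 10 counts in both controls, so none entered the test through the treated group alone.

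The 2 controls also differed from each other. Control library 2 was above control library 1 for 38 of the 40 genes, where 50.6% of all genes were, and the median ratio over the 40 was 1.29. The exceptions were Ndc80 and Bub1b. The largest gaps were in Nuf2 (2.71 times), Cdc20 (2.10 times) and Aurkb (2.06 times). Between the Acly-E14 siRNA libraries the second was above the first for 29 of the 40 (49.9% of all genes), with a median ratio of 1.14.

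CDK1 and its cyclins came first in order of action. Cdk1, the kinase that starts mitosis, was at 4.52 and 6.55 CPM with control siRNA against 10.2 and 12.3 CPM after Acly-E14 siRNA, and rose 2.03-fold (log2 1.02, SE 0.21, edgeR adjusted p = 0.015). Ccna2, cyclin A2, which acts in S and G2 phase, went from 4.12 and 5.80 to 10.5 and 12.8 CPM and rose 2.34-fold. Neither gene had a treated library within the range of its controls. Of the B-type cyclins, Ccnb1, the main partner of CDK1, was at 2.19 and 2.62 CPM in controls against 4.48 and 4.06 CPM and rose 1.78-fold (adjusted p = 0.030). Ccnb2 was at 1.79 and 2.76 against 3.98 and 4.02 CPM, a log2 change of 0.81 that was not called (SE 0.26, adjusted p = 0.061), with its controls further apart than its treated libraries.

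Among the other mitotic kinases, Plk1, the Polo-like kinase that acts from centrosome maturation to cytokinesis, was at 3.48 and 4.96 CPM in controls and at 11.8 and 14.4 CPM after Acly-E14 siRNA. Its rise was 3.09-fold (log2 1.63, SE 0.21, edgeR adjusted p = 0.0037). Nek2, which separates centrosomes, went from 0.944 and 1.68 to 3.94 and 3.43 CPM (2.78-fold, adjusted p = 0.018). Both genes had treated libraries at least 2.03 times the higher control. Melk, a kinase high in dividing cells, was at 1.79 and 2.34 against 3.75 and 5.21 CPM and rose 2.16-fold. Aurka, the Aurora kinase of spindle poles, was at 3.18 and 5.75 CPM in controls and 7.05 and 8.36 CPM in the others, and was not called (log2 0.78, SE 0.28, adjusted p = 0.084). Pbk was at 1.94 and 2.01 against 2.01 and 2.83 CPM (log2 0.29, adjusted p = 0.45). In Pbk, 1 treated library sat at the level of control library 2.

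All 3 kinases of the spindle checkpoint rose. Ttk, also called MPS1, which starts checkpoint signalling at unattached kinetochores, was at 2.04 and 2.62 CPM in controls and at 4.90 and 6.12 CPM after Acly-E14 siRNA (2.36-fold, edgeR adjusted p = 0.011). Bub1, which brings other checkpoint proteins to kinetochores, went from 1.64 and 2.29 to 4.39 and 4.43 CPM (2.24-fold, adjusted p = 0.015). Bub1b, which encodes the APC/C inhibitor BubR1, was already at 11.6 and 10.2 CPM in controls and rose 1.51-fold to 16.7 and 16.2 CPM (log2 0.59, SE 0.11, adjusted p = 0.012). Its libraries within each group were close together.

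Transcripts of the chromosomal passenger complex changed unequally. This complex corrects faulty attachments and later guides cytokinesis: Aurkb is its kinase, Birc5 (survivin) and Cdca8 (borealin) place it on chromosomes, and Incenp is its scaffold. Birc5 was at 2.33 and 3.27 CPM in controls and at 6.91 and 7.31 CPM after Acly-E14 siRNA, and rose 2.53-fold (log2 1.34, SE 0.21, edgeR adjusted p = 0.0069). Aurkb went from 1.04 and 2.15 to 3.57 and 4.16 CPM (2.40-fold, adjusted p = 0.039) and Cdca8 from 2.73 and 3.98 to 5.72 and 6.62 CPM (1.83-fold, adjusted p = 0.033). Incenp was the most abundant of the 4 in every library, at 17.1 and 18.1 against 21 and 20.7 CPM. Its log2 change of 0.24 (SE 0.091) was not called (adjusted p = 0.088). Incenp passed when TMM was left out (0.042) and in limma's test of log2(FPKM + 1) (0.033), which both scale by library totals. It did not pass with DESeq2 (0.35) or without a filter on low counts (0.12).

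All 3 listed genes of protein turnover rose. Cdc20, which turns on the APC/C at anaphase, was at 2.38 and 5.0 CPM in controls and at 10.2 and 12.1 CPM after Acly-E14 siRNA, a 3.01-fold rise (log2 1.59, SE 0.32, edgeR adjusted p = 0.014). The stretch printed above for Cdc20 ends with a TTTGAA match close to its first exon. Ube2c, the ubiquitin-conjugating enzyme of the APC/C, went from 2.98 and 4.26 to 8.60 and 8.77 CPM (2.39-fold, adjusted p = 0.0072). Cdca3, which helps mitotic entry, went from 2.29 and 2.43 to 4.48 and 5.39 CPM (2.09-fold). Of 15 further APC/C genes (subunits, inhibitors, the second activator gene Fzr1 and the ubiquitin-conjugating enzyme gene Ube2s), 0 rose and 0 fell by edgeR, DESeq2 or limma, with a median log2 change of -0.0032. At an unadjusted p under 0.05, 2 were higher and 2 lower. Fzr1 (log2 0.047, adjusted p = 0.77) and Ube2s (-0.11, 0.80) had overlapping groups. The 3 smallest p-values among the 15 belonged to Anapc1 (log2 0.15, adjusted p = 0.079), Anapc10 (-0.36, 0.058) and Cdc27 (-0.21, 0.058).

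Of 6 centromere and kinetochore genes, 3 rose. Cenpf, a large outer kinetochore protein made in G2, was at 2.38 and 2.71 CPM in controls and at 5.22 and 6.49 CPM after Acly-E14 siRNA (2.29-fold, edgeR adjusted p = 0.0093). Cenpe, the kinesin that carries chromosomes to the spindle equator, went from 15.1 and 16.8 to 20.2 and 24.2 CPM (1.39-fold, adjusted p = 0.033). Cenpa, the histone H3 variant that marks centromeres, was at 2.78 and 3.04 against 3.94 and 6.35 CPM and was not called (log2 0.82, adjusted p = 0.069). Its treated libraries were the furthest apart of all 40 genes. The NDC80 complex, which grips microtubule ends, has 3 subunits on the list. Ndc80 went from 1.64 and 1.31 to 3.71 and 2.74 CPM and rose 2.19-fold (adjusted p = 0.028). Nuf2 was at 0.844 and 2.29 against 3.89 and 4.06 CPM (log2 1.33, SE 0.42, adjusted p = 0.057), and Spc25 at 1.99 and 2.53 against 3.34 and 2.83 CPM (log2 0.45, SE 0.24, adjusted p = 0.21). Neither was called, and the controls of Nuf2 were the furthest apart of the 40.

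All 6 kinesins rose. Kif2c, or MCAK, which dismantles microtubules at centromeres, had the highest log2 change of the 40 by edgeR on all 4 libraries, within 1 SE of that of Plk1. Without control library 2, Nuf2 (2.23) and Cdc20 (2.22) were above Kif2c (1.84), and with limma on log2(FPKM + 1) Cdc20 (1.26) was above it (0.56). Kif2c was at 1.44 and 1.87 CPM in controls and at 4.71 and 5.66 CPM after Acly-E14 siRNA (3.12-fold, log2 1.64, SE 0.24, edgeR adjusted p = 0.0053). The chromokinesin Kif22 went from 2.24 and 2.53 to 6.91 and 6.62 CPM (2.84-fold, adjusted p = 0.0031), with replicates close together in both groups. Kif4, the other chromokinesin, rose 2.48-fold from 1.99 and 2.53 to 5.31 and 5.94 CPM. Kif11 (Eg5), the motor that pushes spindle poles apart, rose 2.33-fold from 3.53 and 4.35 to 8.05 and 10.3 CPM. The other kinesins act in the central spindle. Kif23, the motor of the centralspindlin complex, went from 1.74 and 2.71 to 5.58 and 5.53 CPM (2.48-fold, adjusted p = 0.012). Kif20a was more abundant, at 5.66 and 9.63 against 14.05 and 14.3 CPM, and rose 1.84-fold (adjusted p = 0.036). Its controls differed 1.70 times.

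Of 4 spindle microtubule genes, 3 rose. Hmmr, a spindle pole protein and hyaluronan receptor, was at 2.88 and 5.10 CPM in controls and at 8.24 and 10.2 CPM after Acly-E14 siRNA (2.30-fold, edgeR adjusted p = 0.023). Nusap1, which bundles microtubules, went from 3.33 and 4.16 to 6.77 and 6.26 CPM (1.74-fold, adjusted p = 0.023), and Prc1, which crosslinks the central spindle, from 7.05 and 8.70 to 12.0 and 14.5 CPM (1.68-fold, adjusted p = 0.018). Tpx2, which activates Aurora A on the spindle, was at 43.1 and 44.2 against 49.0 and 50.5 CPM. This log2 difference of 0.19 (SE 0.067) was not called (adjusted p = 0.076). It passed when TMM was left out (0.028) and in limma's test of log2(FPKM + 1) (0.045), which both scale by library totals. It did not pass with DESeq2 (0.29) or without a filter on low counts (0.12).

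The 3 cytokinesis genes rose. Anln, which encodes the actin-binding protein anillin of the cleavage furrow, was at 7.90 and 12.3 CPM in controls and at 20.6 and 26.5 CPM after Acly-E14 siRNA (2.32-fold, edgeR adjusted p = 0.012). Ect2, which activates RhoA to place the furrow, went from 4.67 and 4.96 to 9.33 and 10.9 CPM (2.10-fold, log2 1.07, SE 0.15, adjusted p = 0.0050). Racgap1, the partner of Kif23 in centralspindlin, went from 5.56 and 6.13 to 10.8 and 11.2 CPM (1.89-fold, adjusted p = 0.0051). In Ect2 and Racgap1 the groups were well apart and the replicates close.

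The 2 genes of chromosome structure were among the most abundant. Mki67, the proliferation marker Ki-67 that coats mitotic chromosomes, was at 30.8 and 32.7 CPM in controls and at 56.7 and 55.9 CPM after Acly-E14 siRNA. Its 1.77-fold rise (log2 0.83) had the smallest adjusted p of the 40 (edgeR, 0.0016, SE 0.072), and its replicates nearly coincided. Top2a, the topoisomerase that untangles sister chromatids, was at 15.3 and 25.0 against 34.1 and 32.2 CPM (log2 0.72, SE 0.22). Top2a was not called (edgeR adjusted p = 0.051). It passed with DESeq2 (0.011) and when TMM was left out (0.044). It did not pass without a filter on low counts (0.11) or in limma's test of log2(FPKM + 1) (0.054). Its log2 change was 1.11 without control library 2 and 0.40 without control library 1.

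**Figure D2:**
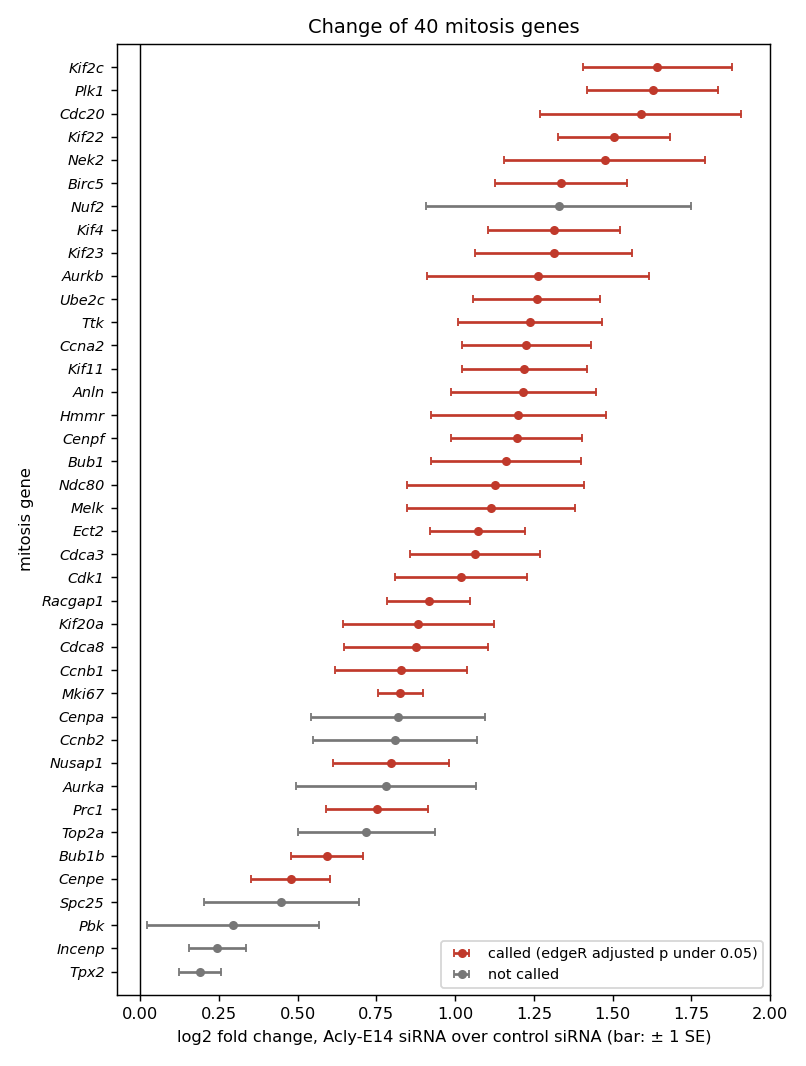
Log2 fold change of each of the 40 mitosis genes, Acly-E14 siRNA over control siRNA, with bars of 1 SE from edgeR and called genes in red. All 40 lie above 0, from 0.19 (Tpx2) to 1.64 (Kif2c), and 9 are not called.

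Of the 31 called genes, 10 were also called in all 10 alternative fits, namely Birc5, Ccna2, Ect2, Kif11, Kif22, Kif2c, Mki67, Plk1, Racgap1 and Ube2c. The other 21 lost it without Acly-E14 siRNA library 2, with edgeR adjusted p between 0.050 and 0.16: Anln, Aurkb, Bub1, Bub1b, Ccnb1, Cdc20, Cdca3, Cdca8, Cdk1, Cenpe, Cenpf, Hmmr, Kif20a, Kif23, Kif4, Melk, Ndc80, Nek2, Nusap1, Prc1 and Ttk. Of these, 16 also lost it without control library 1 (adjusted p 0.050 to 0.15; all but Anln, Bub1b, Cdc20, Kif23 and Kif4). Without Acly-E14 siRNA library 1, 10 lost it (0.051 to 0.16; Aurkb, Bub1, Bub1b, Ccnb1, Cdca8, Kif20a, Kif23, Ndc80, Nek2 and Nusap1), and without control library 2, 3 did (0.052 to 0.10; Bub1b, Cenpe and Ndc80). Without a filter on low counts, Aurkb, Cdca8, Cenpe, Hmmr and Kif20a were not called, and with DESeq2 Ccnb1, Cdca8, Ndc80 and Nusap1 were not. No fit turned the direction of any of the 40, with log2 changes no lower than 0.028 (Pbk without Acly-E14 siRNA library 2).

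Compared per length, Tpx2 and Incenp, with the 2 smallest log2 changes by edgeR on all 4 libraries, had the highest control levels. In FPKM (counts scaled by gene length and library total, with the gene lengths behind the deposited FPKM), the control means were 5.84 for Tpx2, 5.30 for Incenp, 3.06 for Mki67, 2.18 for Bub1b and 1.96 for Kif20a. At the other end stood Cenpf (0.138), Nuf2 (0.199), Nek2 (0.234) and Kif2c (0.258). Those gene lengths differed from the merged exons of GENCODE M21 for all 40, by 0.339 to 1.97 times. With the M21 lengths the order began with the same 4 genes, Tpx2, Incenp, Mki67 and Bub1b, and Top2a came next. The low end changed with those lengths, to Cenpf (0.16), Ndc80 (0.22), Nuf2 (0.24) and Kif23 (0.27). Across the 40 genes the log2 fold change had a Spearman correlation of -0.48 with the control CPM, a description over genes that share the same 4 libraries. The control level is also the reference of the fold change, so noise in the controls by itself pushes this correlation to the negative side.

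Of the 40, 12 share exon bases with another M21 gene, in 11 cases on the opposite strand, and the sources used here do not say whether counting used strand. For these 12 the values may hold reads of the neighbour. The largest overlaps were of Kif20a with Cdc23 (1271 bases), Prc1 with Rccd1 (911), Kif4 with Pdzd11 (832), Ube2c with Tnnc2 (592) and Ccna2 with Exosc9 (510). Cdc23 (log2 0.19), Rccd1 (0.0025), Pdzd11 (-0.18) and Exosc9 (-0.014) were not called. No values are given here for the other neighbours, Tnnc2 among them.

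Other genes of cell division, taken from lists that do not overlap the 40, moved less uniformly. Of 26 tested spindle and centrosome genes, 15 rose and 1 fell (median 0.94), where 17.3% of all genes rose and 15.9% fell. Among the 15 were the kinesin gene Kif18b (3.31-fold), Ckap2l (3.18-fold) and Tacc3 (1.90-fold). The 1 that fell, Sass6 (edgeR adjusted p = 0.049), was not called lower by DESeq2 or limma. Of 28 further kinetochore genes, 9 rose and 0 fell (median 0.75). Zwint, a kinetochore scaffold partner, went from 39.6 and 42.0 to 68.0 and 71.7 CPM (1.71-fold), and Cenpn and Ska2 rose 2.91-fold and 2.40-fold. Of 9 further checkpoint genes, 3 rose and 0 fell (median 0.18): Zwilch and Kntc1 of the RZZ complex (2.35-fold and 2.67-fold) and the ATPase gene Trip13 (2.05-fold). Among 10 genes that control mitotic entry 4 rose and 0 fell (median 0.50), namely Cks1b (2.47-fold), the phosphatase gene Cdc25b (1.98-fold), Ccnf (1.72-fold) and Pkmyt1. DESeq2 called 1 of these 10 higher, near the 9.31% of all its genes that were higher. It called 6 of the 28 kinetochore genes and 13 of the 26 spindle genes higher. In the kinetochore, checkpoint and mitotic entry lists, 0 were lower at an unadjusted p under 0.05 by edgeR and 0 by DESeq2 or limma.

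Other lists hold the genes that keep or release sister chromatids. Of 13 condensin and cohesin genes 7 rose and 3 fell (median 0.30), and the 3 that fell were the cohesin genes Rad21, Stag1 and Stag2. Cohesin genes did not move together: Smc1a rose (log2 0.28, edgeR adjusted p = 0.021) and Smc3 was not called (0.11, 0.36). Rad21, the cohesin subunit that separase cuts, dropped from 346 and 363 to 200 and 194 CPM (log2 -0.85, SE 0.055, edgeR adjusted p = 0.00084), and Stag2 from 244 and 233 to 174 and 168 CPM (log2 -0.48). The condensin II gene Ncapg2 rose 1.71-fold. Of 9 genes of separase control and centromeric cohesion 2 rose and 2 fell, Pttg1 and Wapl (median -0.018). That is 22.2% each way, near the shares of all genes (17.3% and 15.9%). Espl1, which encodes separase, rose 2.69-fold from 1.49 and 1.96 to 4.12 and 5.21 CPM. Pttg1, which encodes its inhibitor securin, fell from 130 and 145 to 86.2 and 93.0 CPM (log2 -0.62, adjusted p = 0.0034). Sgo1, a protector of centromeric cohesion, rose 2.01-fold.

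Foxm1 and Mybl2 encode transcription factors known to drive mitosis genes. Foxm1 was at 2.43 and 6.69 CPM in controls and at 6.68 and 13.98 CPM after Acly-E14 siRNA, so the groups overlapped, and it was not called (log2 1.17, SE 0.52, edgeR adjusted p = 0.14). Mybl2, which encodes the MuvB partner B-Myb, was at 2.63 and 3.41 against 2.65 and 3.11 CPM (log2 -0.072, adjusted p = 0.84). Of 18 tested genes of MuvB, FOXM1 and the RB family, 4 rose (Lin54, E2f7, E2f8 and Trp53) and 3 fell (Rbbp4, E2f5 and Lin9), with a median of -0.037. These are 22.2% and 16.7% of the list, near the 17.3% and 15.9% of all genes. Lin54, the MuvB subunit that contacts the TTTGAA element, rose 2.05-fold from 13.4 and 16.6 to 29.9 and 31.7 CPM. Rbbp4 and E2f5 fell by 0.44 and 0.62 on the log2 scale.

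Genes of the phases before mitosis were higher in part. Of 35 S-phase and replication genes 16 rose and 3 fell, Cdt1, Rfc3 and Ccne1 (median 0.52), where 17.3% of all genes rose and 15.9% fell. The helicase genes Mcm3 and Mcm5 were at 2.03-fold and 1.90-fold and the ribonucleotide reductase gene Rrm1 at 2.21-fold. Of 13 genes of D-type cyclins, their kinases and CDK inhibitors 7 rose and 1 fell (median 0.60). CDK inhibitor genes were on both sides: Cdkn2a (3.53-fold, adjusted p = 0.025) and Cdkn2c (1.79-fold, adjusted p = 0.033) rose and Cdkn1c fell. Ccnd1, cyclin D1, rose 5.604-fold from 7.40 and 8.89 to 44.1 and 47.4 CPM, Ccnd3 rose 3.26-fold and Cdk4 1.87-fold. No difference between the lists was tested.

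**Figure D3:**
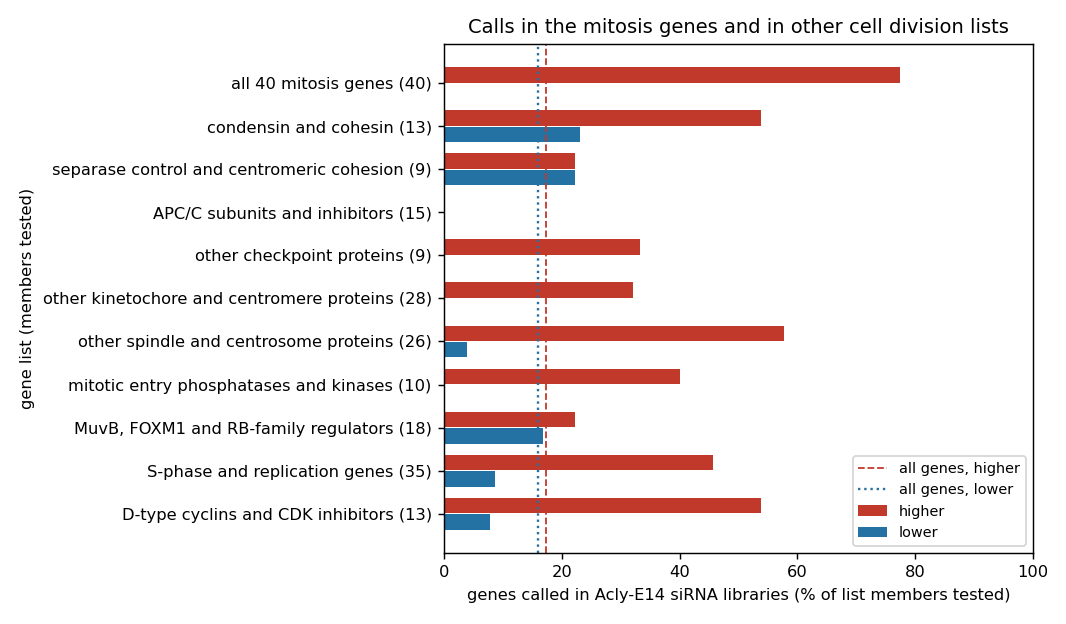
Percent of tested members called higher (red) or lower (blue) in Acly-E14 siRNA libraries for the 40 mitosis genes and 10 other lists, with dashed and dotted lines at the shares of all genes (17.3% and 15.9%). The mitosis genes have 31 of 40 higher and 0 lower, and the APC/C subunits and inhibitors 0 of 15 in either direction.

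Markers of another cell type were higher as well. Of 19 fibroblast and stroma markers 17 rose and 0 fell (median 1.45), by DESeq2 and limma as by edgeR. By edgeR 17.3% of all genes rose and 15.9% fell. None of the 19 was at 0 in any library. Their summed level was 1221 and 1823 CPM in the controls and 4078 and 5037 CPM after Acly-E14 siRNA. The summed mitosis genes put the 4 libraries in the same order (232, 284, 437 and 472 CPM). That order was not particular to these lists. The APC/C subunits and inhibitors, of which 0 were called, had it too (532.5, 535, 546.6 and 554.8 CPM). Pdgfrb, Thy1 and Mmp2 rose 5.46-fold, 4.98-fold and 4.21-fold. Their part in the rise of the mitosis genes was not tested. Of 13 tested macrophage markers 7 fell and 1 rose, Fcgr1 (median -0.30), with a summed level of 15700 to 17100 CPM in controls against 14410 to 14680 CPM. Mrc1, Cebpa and Cd68 fell by 0.63, 1.18 and 0.68 on the log2 scale.

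Markers of other marrow and vessel cells were low or moved differently, and their part was likewise not tested. Myeloid progenitor markers summed to 5.86 and 7.67 CPM in controls and 20.8 and 27.7 CPM in the others, of which Cd34 gave 4.67, 6.41, 20.5 and 27.0 CPM, while Kit fell (log2 -1.86). In that list 2 of 9 genes were tested and 2 had no count in any library. Erythroid markers summed to 4.22 and 4.44 against 0.0458 and 0.365 CPM, with 3 of 3 tested genes lower. Lymphocyte markers summed to 0.348 and 1.12 against 1.05 and 0.776 CPM, with 4 of 10 at 0 in every library. Neutrophil markers summed to 92.9 and 101.3 against 140 and 141 CPM, mostly from Csf3r, and of 3 tested Csf3r and S100a8 were higher and S100a9 lower. Endothelial markers summed to 306 and 294 against 126 and 121 CPM, mostly from Kdr (log2 -1.45), with 2 of 3 tested genes lower.

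**Figure D4:**
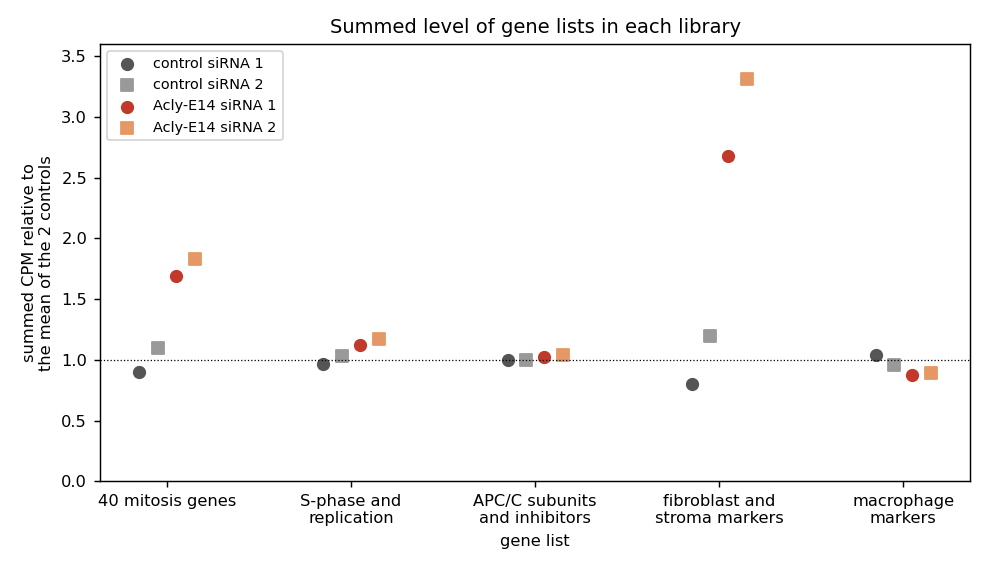
Summed CPM of 5 gene lists in each library, divided by the mean of the 2 controls (dotted line at 1). The mitosis genes lie at 0.899 and 1.10 in controls and 1.69 and 1.83 after Acly-E14 siRNA, the fibroblast and stroma markers at 0.802, 1.198, 2.68 and 3.31, and the macrophage markers at 1.04, 0.957, 0.879 and 0.895.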

How the data were processed

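The deposited table gives raw counts per gene for 4 libraries and FPKM values that the authors computed from them, per the file headers. HISAT2, StringTie 1.3.0, edgeR and mm10 are named in the submitters' processing notes. The labels' protocols name both a stranded total RNA kit and a kit with mRNA capture beads. Which program counted the reads, on which annotation and whether by strand, is not given in the sources used here. Gene lengths were computed from the deposited FPKM values and counts. The deposited table has 1 further FPKM column, left out since its header does not say which replicate it is. Symbols were found for 34267 of 34745 Ensembl IDs.

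Counts were tested with edgeR 4.0.16 (R 4.3.3; filterByExpr with a minimum count of 10, TMM factors, quasi-likelihood F test without covariates, Benjamini-Hochberg adjustment over 13108 genes, called under 0.05). SEs are those implied by the F statistic. Libraries held at least 21023197 counts. On simulated data for this comparison (13108 genes, trended dispersion) 77 of 100 genes raised by a log2 change of 1 were called, with 6 false calls (74 and 10 with tagwise dispersion). Of 100 genes raised by 0.5, 33 were called (21 with tagwise dispersion). Alternatives were a replicate block, leaving out each library, DESeq2's size factors, library totals, DESeq2 1.42.0, no filter, limma 3.58.1 on log2(FPKM + 1), an adjusted p under 0.1 and a log2 fold change of at least 1. The members and the lists were chosen with earlier results of these data known. The genes named are the 40 members, Acly, Foxm1, Mybl2 and the 3 of smallest p in each other list. Adgre1, the neighbouring genes and the other genes named to complete a small count were chosen after their values were seen. The list of macrophage markers leaves out 1 gene, which is not reported here.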

Additional observations from a re-analysis of the deposited data

How the results depend on the processing

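The number of mitosis genes called higher (31) ranged from 10 to 32 when 1 library was left out. It was 26 to 38 under the other alternatives except a log2 fold change of at least 1 (22). The share of all genes called higher, 17.3% in the main fit, changed with the setting too. It was 7.78% to 13.5% with 1 library left out. It was 9.01% with no filter (26 mitosis genes) and 22.5% at an adjusted p under 0.1 (38). At a log2 fold change of at least 1 (22) it was 7.49%. None of the mitosis genes was called lower in any fit. Their median log2 fold change of 1.09 ranged from 0.85 to 1.3 with 1 library left out and was 0.52 with limma on log2(FPKM + 1), where the pseudocount shrinks changes of low genes by construction. Over all genes, 1045 to 1815 were higher and 982 to 1400 lower with 1 library left out, 1389 were lower with limma on log2(FPKM + 1), and 982 were higher and 219 lower beyond 1 on the log2 scale. The fall of Acly ranged from -0.40 to -0.30 with 1 library left out and was not called without control library 1. With the replicate number as a block, 36 mitosis genes were called higher, where 19.2% of all genes were. The 36 were the 31 and Aurka, Ccnb2, Cenpa, Nuf2 and Top2a. The numbers are not known to pair the libraries: deviations of same-numbered libraries from their group means correlated at 0.136 across 13108 genes, with only 2 pairs. With library totals alone 34 mitosis genes were called higher, where 21.2% of all genes were. Depth limits the genes with few counts, of which the lowest had 17 in a library.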
